A study of Homo sapiens with 15 samples.

Results

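The receptors of the ERBB family, their ligands and the adaptors GAB1 and GRB2 were followed across xenograft tumors of HCT116, a human colon cancer cell line. The set held 10 genes, namely the receptors EGFR, ERBB2, ERBB3 and ERBB4, the ligands AREG, EREG, TGFA and HBEGF, and the adaptors GAB1 and GRB2. Members were all non-control probes whose annotated RefSeq transcript belongs to 1 of these genes, which gave 17 probes out of the 34127 on the array. A probe was tested when it was well above background on all 3 arrays of at least 1 construct, and 16 of the 17 probes met this, as did 30585 probes in all. All 10 genes kept at least 1 tested probe, against 18016 genes over the whole array.

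The tumors came from cells transiently transfected with 1 of 5 constructs and grown under the skin of athymic nude mice. They were excised later than the time over which the study reported expression in culture. The vector tumors came from cells given empty pCDNA3, and the MOAP-1 tumors from cells given wild type Myc-tagged MOAP-1. For the K264R and K278R tumors it was Myc-tagged MOAP-1 with a lysine changed to arginine at the position in the name. The tumors labelled RASSF1A came from cells given HA-tagged RASSF1A in pCDNA3. MOAP-1 is a pro-apoptotic protein that binds BAX and the tumor suppressor RASSF1A. Each construct had 3 tumors and each tumor 1 array, so 15 arrays were used. All tumors shared the HCT116 background, and the transfected cells were pools rather than selected clones. The labels do not say whether tumors came from separate cultures, so the p-values measure the spread between these tumors.

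ERBB receptors are tyrosine kinases at the cell surface that pair up when a ligand binds. ERBB2 has no known ligand of its own, and ERBB3 has weak kinase activity and signals through its partners. The ligands are made as membrane proteins and are released by proteases such as ADAM17. GRB2 links an active receptor to SOS and RAS, and GAB1 is a docking protein for PI3K and the phosphatase SHP2. In colorectal cancer AREG and EREG are known as ligands made by the tumor cells themselves.

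The genes AREG and EREG lie next to each other on chromosome 4, with 0 protein-coding genes between them in the RefSeq annotation. Their upstream sequences are shown because both ligands were highest in K264R tumors and lowest in K278R tumors. Each sequence covers the 250 bases before the RefSeq start site on the plus strand of GRCh38.p14, AREG at chr4:74444886-74445135 and EREG at chr4:74364895-74365144. Capitals mark the cyclic AMP response element TGACGTCA and the TATA motif TATAAA, which were searched on both strands and do not overlap each other.
AREG: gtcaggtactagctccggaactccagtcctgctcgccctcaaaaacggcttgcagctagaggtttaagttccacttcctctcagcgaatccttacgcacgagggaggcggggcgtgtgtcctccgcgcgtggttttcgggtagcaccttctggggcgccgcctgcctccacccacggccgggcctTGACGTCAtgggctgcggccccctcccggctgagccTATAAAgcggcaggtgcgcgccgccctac
EREG: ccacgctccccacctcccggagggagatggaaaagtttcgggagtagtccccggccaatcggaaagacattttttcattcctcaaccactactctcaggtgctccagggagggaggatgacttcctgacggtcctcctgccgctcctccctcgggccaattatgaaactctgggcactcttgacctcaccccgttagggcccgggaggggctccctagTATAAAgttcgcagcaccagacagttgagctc
The AREG window held both motifs, TGACGTCA beginning 65 bases and TATAAA 29 bases before the start. The EREG window held only TATAAA, 32 bases before the start. Of 35116 RefSeq windows of the same length, 1.65% held TGACGTCA and 10.7% held TATAAA. Windows were on hand for 8 of the 10 genes, all but ERBB3 and GAB1. AREG was the only member with TGACGTCA, and TATAAA was also found in a second EGFR window. A match describes the letters only, and no binding was measured.

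Levels below are log2 of the background-corrected signal less the 75th percentile of its array, so 0 is the 75th percentile and 1 unit is a doubling. Levels are compared between tumors at 1 probe and never between probes. A probe was called when the limma adjusted p was below 0.05 and the change was at least 1.5-fold. The arrays had 85.1 to 93.1% of spots well above background and no saturated spot, and the 75th percentile ranged from 496.3 to 1402 intensity units. The MOAP1 probe was at -0.53 to -0.13 in vector tumors, at 0.11 to 0.71 in the tumors of the 3 MOAP-1 constructs, and at -0.52 to -0.23 in the tumors labelled RASSF1A. The RASSF1 probe was at 1.55 to 1.59 in the tumors labelled RASSF1A and at 1.52 to 1.81 in vector tumors, so it did not show the introduced gene. Whether either probe lies inside the introduced sequence is not given in the sources used here, and a probe outside it checks nothing. All 8 colon epithelium markers on the list were well above background in every tumor. Their summed level was 8.06 to 8.27 in vector tumors, 7.78 to 7.99 in MOAP-1 and 7.65 to 7.82 in K264R. In K278R it was 7.50 to 8.02, and in the tumors labelled RASSF1A 7.87 to 8.05. Summed levels of 9 fibroblast and pericyte markers ranged from 1.03 to 2.96 in vector tumors, 2.51 to 5.45 in MOAP-1, 2.22 to 4.28 in K264R, 3.45 to 5.37 in K278R and 3.01 to 3.52 in the tumors labelled RASSF1A. LUM and POSTN on that list and TEK on the endothelial list were not well above background throughout any construct. Of 39 tested marker probes, 5 were called in MOAP-1 against vector, all higher: DCN by 4.46, COL1A1 by 2.24, TIE1 by 2.37, PTPRC by 0.72 and KRT8 by 1.07 on the log2 scale. KRT8 was the only one called of 10 colon epithelium probes, whose median change was -0.04. The 5 calls were 12.8% of the marker probes, beside 16.6% of all probes. In K264R, K278R and RASSF1A against vector 1, 3 and 0 marker probes were called, and in MOAP-1 against RASSF1A 4. These were 2.56, 7.69, 0 and 10.3%, beside 19.5, 10.9, 0 and 21.2% of all probes. The part of these cell type markers in the ERBB results was not tested. Fibroblasts, vessels and blood cells in these tumors would come from the mouse host, while the arrays were made for human genes. Whether the marker signals came from mouse or human RNA was not tested.

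Slide and construct were largely confounded. The vector tumors and RASSF1A tumor 3 shared slide 4, RASSF1A tumors 1 and 2 were on slide 5, and the 3 MOAP-1 constructs were on slides 1 to 3. The effect of slide and that of construct cannot be told apart for a MOAP-1 construct against vector. The same holds for MOAP-1 against K264R and against RASSF1A, which shared no slide with the MOAP-1 tumors. In addition, the signals of dim probes depended on the background correction, and calls that changed with it are given beside the values or counted further below. The other correction was normexp, a model that subtracts each spot's local background. It was run on all spots and without 17 spots of extreme local background on 3 arrays.

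Against vector, MOAP-1 tumors had 6 of the 16 member probes called, 4 higher and 2 lower. Over all tested probes the share called was 16.6%, with 9.92% higher and 6.69% lower. The probes called higher were those of GRB2, HBEGF and GAB1 and 1 of the 2 for TGFA, and those called lower were 1 of 3 for EGFR and the tested one for ERBB4. K264R tumors had 8 member probes called against vector, 6 higher and 2 lower, beside 19.5% of all probes, 9.25% higher and 10.2% lower. These were the same 6 probes as in MOAP-1 and both AREG probes. K278R tumors had 4 member probes called, those of EGFR and ERBB4 lower and of TGFA and GRB2 higher, beside 10.9% of all probes, 7.71% higher and 3.2% lower. The comparisons share their vector tumors. Median changes over the 16 member probes were 0.10 for MOAP-1, 0.14 for K264R and 0.03 for K278R, beside 0.02, -0.05 and 0.06 over all probes.

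The tumors labelled RASSF1A had 0 member probes called against vector by limma, and 0% of all probes were called, 0% higher and 0% lower. At an unadjusted p below 0.05 there were 3 of the 16 member probes and 3695 of all probes, or 12.1%. The unpaired t-test of the methods called 0 member probes, with or without adjustment. Leaving out RASSF1A tumor 3, which shared the slide of the vector tumors, gave 2 member probes called, EGFR at -1.0 and GRB2 at -0.82 on the log2 scale, beside 4.6% of all probes, 0.853% higher and 3.75% lower. EGFR, GAB1 and TGFA were singled out in the study from MOAP-1 and vector tumors of this series, so their values in that comparison are not independent evidence.

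**Figure D1:**
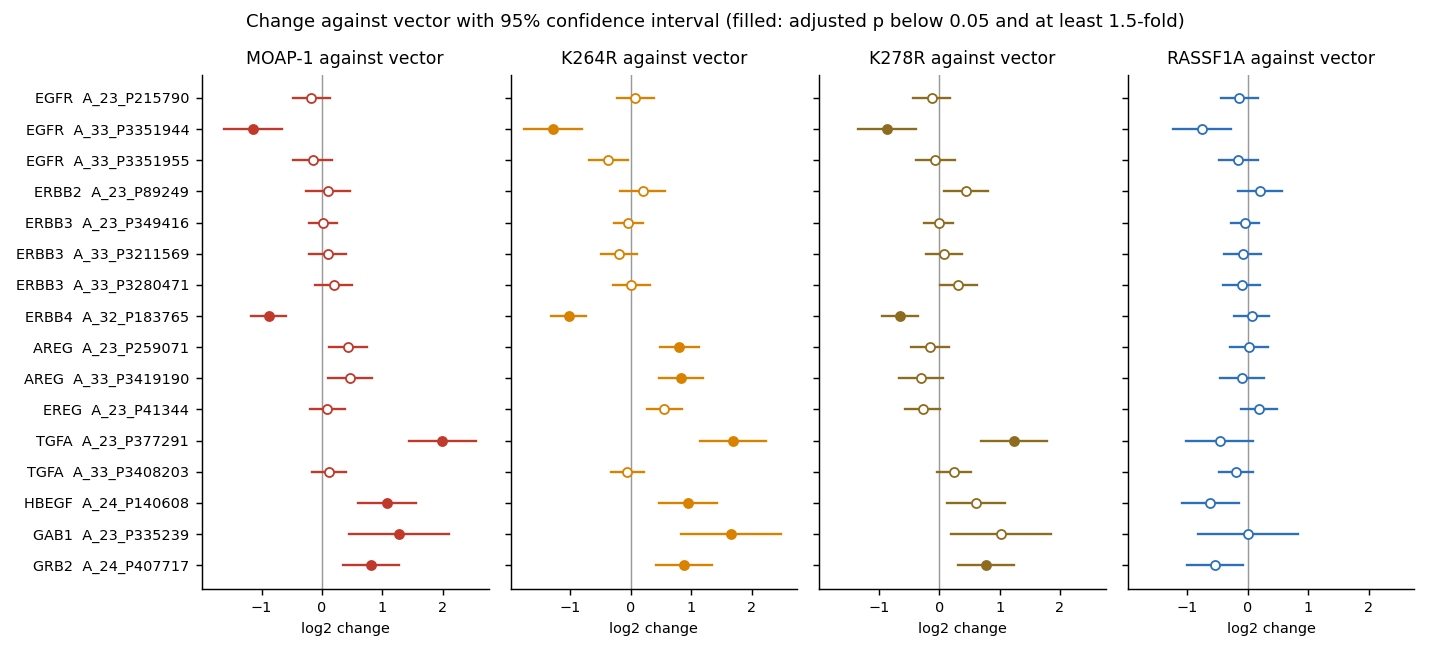
Log2 change of each member probe against the vector tumors (x axis) for MOAP-1, K264R, K278R and RASSF1A, with 3 tumors a construct; bars are 95% confidence intervals from limma and filled points were called. Filled points number 6, 8, 4 and 0 from left to right, beside 16.6, 19.5, 10.9 and 0% of all probes.

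The ERBB receptors were mostly level across the constructs, with 2 exceptions. EGFR, the receptor for all 4 ligands of the set, had 3 probes. The probe for the full-length transcript NM_005228 (A_23_P215790, 10 spots an array) read -1.42, -1.06 and -1.34 in vector tumors, -1.18, -1.48 and -1.68 in MOAP-1, -1.05, -1.40 and -1.14 in K264R, -1.42, -1.34 and -1.42 in K278R and -1.27, -1.53 and -1.44 in RASSF1A. All 5 groups overlapped. The MOAP-1 difference from vector was -0.18 with a 95% interval of -0.48 to 0.13 (limma adjusted p 0.367). The 10 spots of 1 array had an SD of 0.03 to 0.07, whereas the pooled SD between tumors of a construct was 0.17.

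The EGFR probe annotated to the short transcript NM_201283 (A_33_P3351944) was the receptor probe with the lowest levels in tumors of the MOAP-1 constructs relative to vector. This transcript encodes a truncated receptor without the kinase domain. It read -1.57, -1.54 and -1.09 in vector tumors, -2.67, -2.38 and -2.57 in MOAP-1, -2.65, -2.62 and -2.79 in K264R, -2.46, -1.82 and -2.51 in K278R and -2.53, -2.27 and -1.67 in RASSF1A. The vector tumors lay above every other tumor, and the other 4 constructs overlapped in the order RASSF1A, K278R, MOAP-1 and K264R. It fell by 1.14 in MOAP-1 (SE 0.22, 2.21-fold, adjusted p 0.00239), by 1.29 in K264R (adjusted p 0.000841) and by 0.86 in K278R (adjusted p 0.018). The K278R call was lost without K278R tumor 1 (-0.76), K278R tumor 3 (-0.74) or vector tumor 3 (-0.71). After normexp the values were -1.23 in MOAP-1, -0.89 in K264R and -1.01 in K278R, and none was called. The medians over all probes were then -0.53, -0.31 and -0.46. In the tumors labelled RASSF1A the difference was -0.76 (interval -1.24 to -0.27, adjusted p 0.341), and it was not called. RASSF1A tumor 3, the 1 on the vector slide, was 0.27 below the vector mean on that slide. The third EGFR probe, for the short transcript NM_201282 (A_33_P3351955), had group means from -3.04 in K264R to -2.67 in vector tumors and was called in none of the comparisons. Fewer cells that carry a transcript and less of it in each cell cannot be told apart in these bulk samples.

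ERBB4, the receptor for neuregulins and HB-EGF, was lower in the tumors of all 3 MOAP-1 constructs. Its tested probe (A_32_P183765) read -1.74, -1.72 and -1.86 in vector tumors, -2.74, -2.79 and -2.45 in MOAP-1, -2.99, -2.79 and -2.62 in K264R, -2.24, -2.65 and -2.38 in K278R and -1.55, -1.75 and -1.84 in RASSF1A. The vector and RASSF1A tumors overlapped and lay above the other 9 tumors. It fell by 0.89 in MOAP-1 (SE 0.14, 1.85-fold, adjusted p 0.000604), by 1.03 in K264R (adjusted p 0.000184) and by 0.65 in K278R (adjusted p 0.00751). Without K278R tumor 2 the K278R value was -0.54, under 1.5-fold. After normexp the values were -1.12 in MOAP-1, -0.72 in K264R and -0.89 in K278R, and none was called. The medians over all probes were then -0.53, -0.31 and -0.46. Without spots of extreme local background the K278R value was -0.53, also under 1.5-fold. The second ERBB4 probe (A_33_P3211558) was not well above background on any of the 15 arrays and was not tested.

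ERBB2 and ERBB3 had no called probe in any comparison. The ERBB2 probe (A_23_P89249, 10 spots an array) read 0.43 to 0.57 in vector tumors, 0.53 to 0.65 in MOAP-1, 0.63 to 0.75 in K264R, 0.59 to 1.43 in K278R and 0.55 to 0.92 in RASSF1A. The K278R tumors lay above the vector tumors by 0.45 on average, mainly through tumor 2, and the change was not called (interval 0.09 to 0.81, adjusted p 0.0742). Without K278R tumor 3 it was 0.63 and was called. The ERBB3 probe A_23_P349416 had the flattest profile of the set, with group means between -1.24 and -1.17 and a range of 0.37 over all 15 tumors. Its MOAP-1 difference from vector was 0.02 (interval -0.22 to 0.25). The other ERBB3 probes, A_33_P3211569 and A_33_P3280471, had group means from -1.47 to -1.18 and from -4.39 to -3.97.

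**Figure D2:**
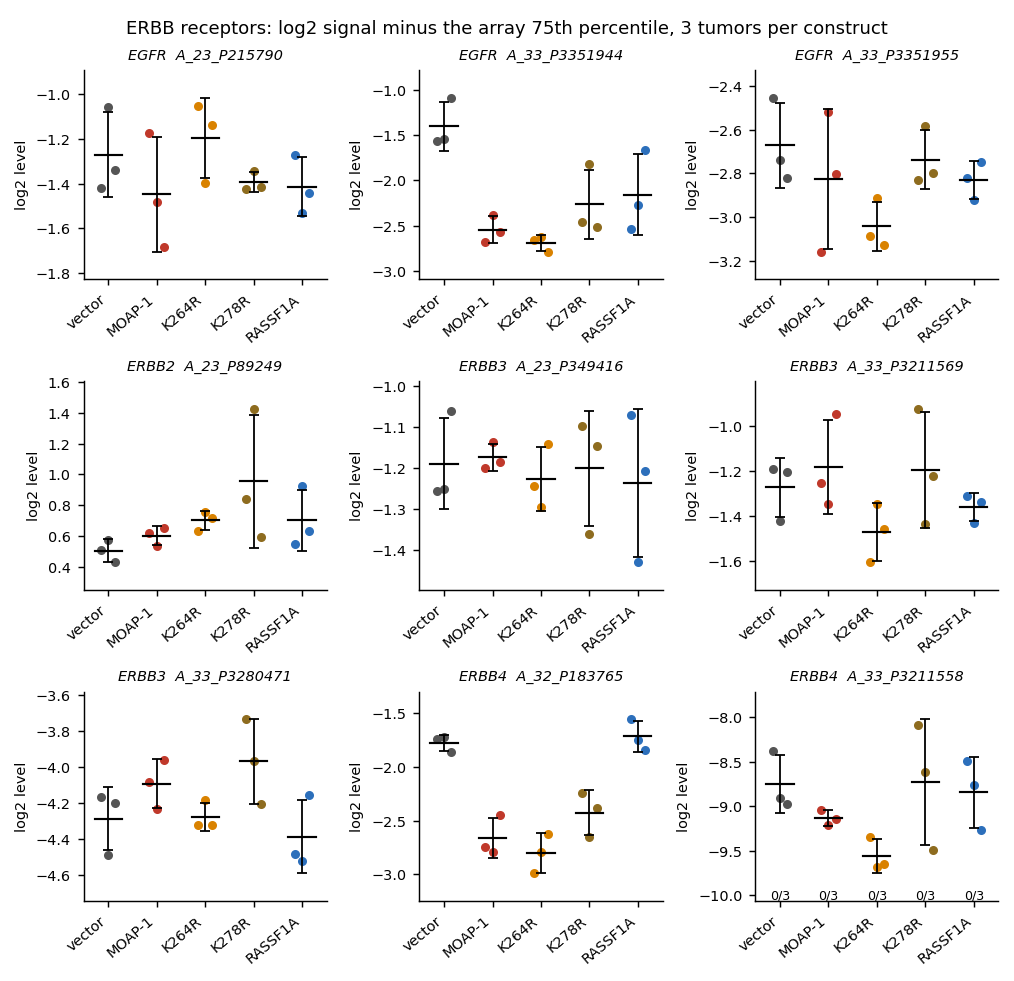
Level of each ERBB receptor probe (y axis, log2 signal less the array's 75th percentile) in each tumor by construct; points are tumors, horizontal lines means and bars the SD over 3 tumors, and 0/3 marks a group with no tumor well above background. EGFR A_33_P3351944 and ERBB4 A_32_P183765 were lower in the MOAP-1, K264R and K278R tumors than in vector tumors, while the ERBB3 probes overlapped.

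Among the ligands, AREG (amphiregulin) was highest in K264R tumors. Its first probe (A_23_P259071) read 3.68, 4.15 and 3.72 in vector tumors, 4.45, 4.28 and 4.09 in MOAP-1, 4.66, 4.60 and 4.70 in K264R, 3.72, 3.59 and 3.77 in K278R and 4.14, 3.73 and 3.74 in RASSF1A. The K264R tumors lay above all others, and the MOAP-1 tumors overlapped the vector tumors through vector tumor 2. The second probe (A_33_P3419190) read 2.95, 3.40 and 2.81 in vector tumors, 3.74, 3.51 and 3.28 in MOAP-1, 3.92, 3.84 and 3.90 in K264R, 2.79, 2.49 and 2.98 in K278R and 3.10, 2.82 and 2.95 in RASSF1A. K264R again lay above the rest, followed by MOAP-1. AREG rose in K264R by 0.81 (SE 0.15, adjusted p 0.00112) and 0.83 (SE 0.17, adjusted p 0.00229) at the respective probes. In MOAP-1 the differences from vector were 0.42 (adjusted p 0.0431) and 0.46 (adjusted p 0.0543), both under 1.5-fold. With quantile normalization both MOAP-1 values were called, at 0.68 and 0.70. Without vector tumor 2 the second probe was called as well, at 0.63.

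EREG (epiregulin), the neighbour of AREG, was also highest in K264R. Its probe (A_23_P41344) read 2.68, 2.72 and 2.46 in vector tumors, 2.91, 2.67 and 2.55 in MOAP-1, 3.25, 2.96 and 3.33 in K264R, 2.20, 2.53 and 2.31 in K278R and 2.89, 2.87 and 2.66 in RASSF1A. The K264R tumors lay above all others, and the next constructs in the order, RASSF1A, MOAP-1, vector and K278R, each overlapped their neighbour. The K264R difference from vector was 0.56 (SE 0.14, adjusted p 0.00668), just under 1.5-fold and so not called. It was called with quantile normalization at 0.79, in the submitters' log2 table at 0.61, and without K264R tumor 2 at 0.67, vector tumor 1 at 0.59 or vector tumor 2 at 0.61.

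The mutants were compared with each other after these levels had been seen. Between K264R and K278R, 3 member probes were called, all higher in K264R, beside 0.575% of all probes, 0.216% higher and 0.36% lower. These were the AREG probes at 0.97 (interval 0.65 to 1.28, adjusted p 0.02) and 1.13 (interval 0.77 to 1.49, adjusted p 0.019) and the EREG probe at 0.83 (interval 0.54 to 1.13, adjusted p 0.0255). The median over all probes was -0.14 in this comparison. All 3 calls were lost without K264R tumor 1, K264R tumor 3 or K278R tumor 1, where AREG was at 0.94 to 0.98 and 1.11 to 1.14 and EREG at 0.76 to 0.80, and when only the 6 arrays compared were fitted. Without K278R tumor 2 the first AREG probe, at 0.92, was not called. After normexp the AREG probes were at 0.80 and 0.95 and EREG at 0.71, and none was called. The median over all probes was then 0.27. K264R and K278R lay on different slides, so slide and mutant cannot be told apart.

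TGFA, which encodes transforming growth factor alpha, gave different results at its probes, both annotated to NM_003236. The first probe (A_33_P3408203) read 4.27, 3.91 and 3.93 in vector tumors, 4.07, 4.14 and 4.23 in MOAP-1, 3.87, 4.11 and 3.97 in K264R, 4.21, 4.47 and 4.15 in K278R and 3.64, 3.94 and 3.93 in RASSF1A. Neighbouring groups overlapped throughout. Its MOAP-1 difference from vector was 0.11 (interval -0.17 to 0.39, adjusted p 0.537). The second probe (A_23_P377291) read -5.23, -5.62 and -5.03 in vector tumors, -3.25, -3.19 and -3.46 in MOAP-1, -3.57, -3.35 and -3.87 in K264R, -4.08, -4.40 and -3.69 in K278R and -5.75, -6.30 and -5.23 in RASSF1A. Here the 9 tumors of the MOAP-1 constructs lay above the 6 others. It rose by 1.99 in MOAP-1 (SE 0.25, 3.98-fold, adjusted p 0.000255), by 1.69 in K264R (adjusted p 0.000339) and by 1.23 in K278R (adjusted p 0.00672). This increase depended on the background correction. After normexp, a model that subtracts each spot's local background, the MOAP-1 value was -0.75, beside a median of -0.53 over all probes, and was not called. When 17 spots of extreme local background on 3 arrays were left out of normexp, it was 0.42 in MOAP-1 (adjusted p 0.0306), 0.09 in K264R and 0.14 in K278R, each under 1.5-fold.

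HBEGF, which encodes heparin-binding EGF-like growth factor, rose in MOAP-1 and K264R tumors. Its probe (A_24_P140608) read -2.92, -3.13 and -2.93 in vector tumors, -1.94, -1.79 and -2.04 in MOAP-1, -1.75, -2.02 and -2.35 in K264R, -2.18, -2.68 and -2.30 in K278R and -3.27, -4.18 and -3.38 in RASSF1A. Each of the 9 tumors of the MOAP-1 constructs was above the vector tumors, and each RASSF1A tumor was below them. The increase was 1.07 in MOAP-1 (SE 0.22, 2.10-fold, adjusted p 0.00326) and 0.95 in K264R (adjusted p 0.00513). In K278R the difference was 0.61 (adjusted p 0.0666) and in RASSF1A -0.62 (adjusted p 0.349), and neither was called. The K278R value was called without K278R tumor 2, at 0.76, with the replicate block (limma adjusted p 0.0475) and with slide as a random block (limma adjusted p 0.0363). The slide block cannot remove a slide difference here, because K278R and vector tumors shared no slide. Its fitted correlation within slides was -0.08. After normexp the MOAP-1 value was -0.18, while the median over all probes was -0.53. Without spots of extreme local background it was 0.56 in MOAP-1 (adjusted p 0.00451) and 0.43 in K264R (adjusted p 0.00731), both just under 1.5-fold.

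The adaptor GRB2 rose in the tumors of all 3 MOAP-1 constructs. Its probe (A_24_P407717) read -0.83, -1.40 and -0.62 in vector tumors, -0.14, -0.07 and -0.20 in MOAP-1, -0.09, -0.02 and -0.11 in K264R, -0.17, -0.19 and -0.17 in K278R and -1.91, -1.63 and -0.94 in RASSF1A. The MOAP-1, K264R and K278R tumors sat within a narrow band, whereas the vector and RASSF1A tumors were lower and more scattered. GRB2 rose by 0.81 in MOAP-1 (SE 0.22, 1.76-fold, adjusted p 0.0132), by 0.88 in K264R (adjusted p 0.00719) and by 0.77 in K278R (adjusted p 0.0248). Without vector tumor 2 the MOAP-1 value was 0.59 and the K278R value 0.55, and neither was called. The K278R call was also lost without K278R tumor 1 or tumor 3, at 0.77 each, and when only the arrays compared were fitted (limma adjusted p 0.0618). With the methods' t-test after adjustment all 3 calls were lost, at adjusted p 0.0884 in MOAP-1, 0.0637 in K264R and 0.165 in K278R. That test called 8.59, 14.1 and 0% of all probes. Without adjustment it kept all 3. After normexp the values were 0.37 in MOAP-1, 0.48 in K264R and 0.34 in K278R, and none was called. The medians over all probes were then -0.53, -0.31 and -0.46.

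GAB1 was close to background, so its levels are bounds in several groups. Its probe (A_23_P335239, transcript NM_207123) read -8.22, -7.47 and -8.22 in vector tumors, -7.00, -6.39 and -6.71 in MOAP-1, -6.06, -6.72 and -6.16 in K264R, -7.00, -7.05 and -6.81 in K278R and -7.10, -9.05 and -7.75 in RASSF1A. It was well above background in 3 of 3 K264R tumors, in 2 of 3 MOAP-1 and 2 of 3 K278R tumors, and in 0 of 3 vector and 0 of 3 RASSF1A tumors. The probe passed the filter only through K264R, so a difference of that group from the others was built into its selection. Against the lowest signal well above background on the vector arrays, GAB1 was at least 1.19-fold higher in K264R. That minimum holds only for the background correction of the scanner software. The measured means were -6.31 and -7.97. Their limma adjusted p of 0.00508 is no independent support, because K264R selected the probe. For MOAP-1, with a measured mean of -6.70 and a limma adjusted p of 0.0241, no fold can be given because the mean lay under that lowest signal. The call in MOAP-1 was lost with quantile normalization and without any 1 of MOAP-1 tumor 2, MOAP-1 tumor 3, vector tumor 1 or vector tumor 3, at 1.12, 1.28, 1.15 and 1.15. After normexp its sign turned, to -1.73 in MOAP-1 and -0.86 in K264R. Without spots of extreme local background it was -0.45 in MOAP-1 and -0.71 in K264R, where it was called lower (adjusted p 0.00315), beside medians of -0.16 and -0.28 over all probes.

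**Figure D3:**
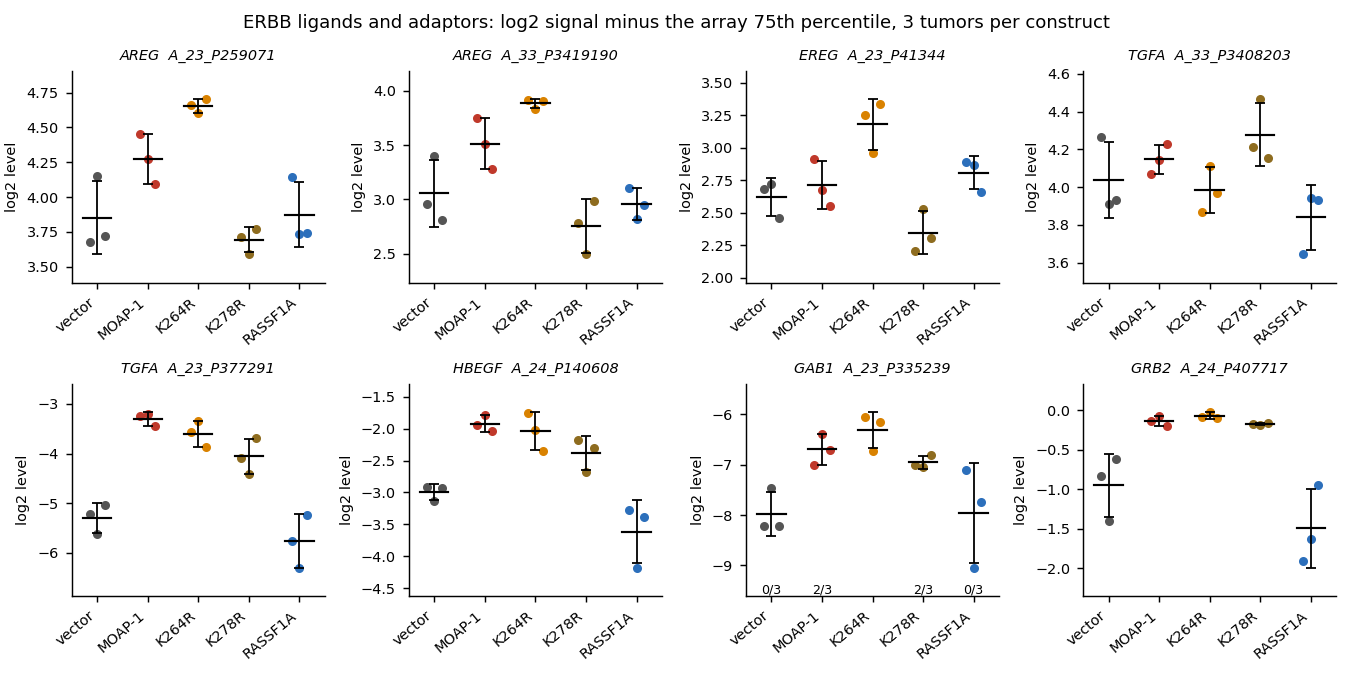
Level of each ERBB ligand and adaptor probe (y axis, log2 signal less the array's 75th percentile) in each tumor by construct; points are tumors, horizontal lines means and bars the SD over 3 tumors, and a fraction above the axis gives the tumors well above background where under 3 of 3. AREG and EREG were highest in K264R tumors, and TGFA A_23_P377291, HBEGF and GRB2 were higher in tumors of all 3 MOAP-1 constructs than in vector tumors.

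Wild type MOAP-1 was next compared with each mutant, to ask whether the lysine changes altered these genes. Limma called 0 member probes in MOAP-1 against K264R, beside 0.00327% of all probes, 0.00327% higher and 0% lower. It called 0 in MOAP-1 against K278R, beside 0% of all probes. At an unadjusted p below 0.05 there were 3 and 4 member probes, beside 10.9% and 9.22% of all probes. The t-test of the methods without adjustment called 0 and 2, the latter an AREG probe and the second TGFA probe, beside 1.03% and 0.471% of all probes. EREG differed from K264R by -0.47 (interval -0.76 to -0.18, adjusted p 0.35), and the second AREG probe differed from K278R by 0.76 (interval 0.40 to 1.12, adjusted p 0.366). The second TGFA probe differed from K278R by 0.76 (interval 0.21 to 1.31, adjusted p 0.467). MOAP-1 tumor 2, the 1 tumor on the slide of the K278R tumors, was 0.76 above their mean at the second AREG probe, 0.86 above at the second TGFA probe and 0.60 above at HBEGF. For the short EGFR transcript the interval was -0.34 to 0.63 against K264R and -0.76 to 0.20 against K278R, and for ERBB4 it was -0.15 to 0.44 and -0.53 to 0.06.

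MOAP-1 tumors and the tumors labelled RASSF1A were compared directly because the proteins bind each other. Of the 16 member probes 5 were called, 4 higher and 1 lower, beside 21.2% of all probes, 13% higher and 8.14% lower. HBEGF was 1.69 higher in MOAP-1 (SE 0.22, 3.22-fold, adjusted p 0.000114) and the second TGFA probe 2.46 higher (SE 0.25, 5.50-fold, adjusted p 4e-05). GRB2 was 1.36 higher (SE 0.22, adjusted p 0.000393) and ERBB4 0.95 lower (SE 0.14, adjusted p 0.000206). GAB1 was called higher, with measured means of -6.70 and -7.97 and a limma adjusted p of 0.0198. No fold is given, because MOAP-1 tumor 1 (-7.00) also lay under the lowest signal well above background on its array (-6.85). After normexp GAB1 was at -0.23, HBEGF at 0.97, the second TGFA probe at 0.72 and ERBB4 at -0.80, and none was called. The median over all probes was then -0.11, and GRB2 alone kept its call. Without spots of extreme local background HBEGF, the second TGFA probe, GRB2 and ERBB4 were called, and GAB1 was not. The GAB1 call was also lost without MOAP-1 tumor 2, at 1.11, and without RASSF1A tumor 2, at 0.73. The short EGFR transcript differed by -0.39 (interval -0.87 to 0.10) and was not called. With quantile normalization 8 member probes were called, beside 20.7% of all probes. The added ones were both AREG probes at 0.72 and 0.83 and the first TGFA probe at 0.62. The second AREG probe was also called without MOAP-1 tumor 3, at 0.67, or RASSF1A tumor 1, at 0.63. With scan day as a term the RASSF1A level rested on tumor 3 alone, because tumors 1 and 2 were scanned on another day. In that fit GAB1 was at 1.05 and the short EGFR transcript at -0.87.

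Other genes of the ERBB pathway were counted from a list of 71 genes, of which 70 had 86 tested probes and NRG3 had none. In MOAP-1 against vector 19 of these probes were called, 16 higher and 3 lower, which is 22.1% beside 16.6% of all probes. Every group named below but 1 had only higher calls. Of 16 probes for ERK output and feedback genes, 4 were called, the largest being the RAS-ERK inhibitor SPRED2 at 1.71, PHLDA1 at 1.44 and the transcription factor ETV5 at 1.36. Of 14 PI3K to AKT probes 4 were called, among them the catalytic subunit PIK3CB at 1.42 and the regulatory subunit PIK3R3 at 1.14. Of 18 probes for adaptors and enzymes at the receptor 3 were called, CRK at 1.13, PLCG1 at 0.83 and CRKL at 0.72. Of 11 probes for receptor inhibitors 2 were called, RNF41, a ubiquitin ligase for ERBB3, at 1.68 and LRIG2 at 1.06. Of 6 probes for ligand processing 1 was called, the sheddase ADAM17, at 1.07. The exception was the other ligands, where 3 of 7 probes were called lower, BTC by -0.82, NRG4 by -0.78 and EGF by -0.67.

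K264R tumors had 25 of the 86 pathway probes called against vector, 18 higher and 7 lower, which is 29.1% beside 19.5% of all probes. K278R tumors had 13, of which 12 were higher, which is 15.1% beside 10.9%. The ligand EPGN (epigen) was the largest in K264R, at 1.92, and was also 1.54 above K278R (adjusted p 0.0323). After normexp without spots of extreme local background these values were -0.27 and -0.04, beside medians of -0.28 and -0.22 over all probes. SPRED2, PHLDA1 and ETV5 were called in both mutants, at 1.59, 1.58 and 1.24 in K264R and at 1.22, 1.26 and 1.07 in K278R. The tumors labelled RASSF1A had 0 pathway probes called against vector by limma. At an unadjusted p below 0.05 there were 12 of the 86, beside 12.1% of all probes. MOAP-1 against RASSF1A had 29 called, 25 higher and 4 lower, which is 33.7% beside 21.2% of all probes. Among them were RNF41 at 2.29, SPRED2 at 2.0 and CRK at 1.79. With quantile normalization the count in MOAP-1 against vector was 15, all of them among the 19, beside 15.3% of all probes. After normexp it was 1, beside 1.71% of all probes and a median of -0.53, and 10 of the 19 turned sign, SPRED2, RNF41 and PIK3CB among them. After normexp without extreme spots it was 8, beside 9.02% of all probes, all among the 19, and 1 of the 19, PIK3R3, turned sign. In K264R and K278R against vector the counts after normexp were 1 and 0, beside 2.96% and 0.00327% of all probes. Of the 25 and 13 main calls 4 and 10 turned sign, with SPRED2 at -0.48 and ETV5 at -0.09 in K278R. Without extreme spots the counts were 17 and 4, beside 29.3% and 4.21%. MOAP-1 against RASSF1A had 8 after normexp, beside 7.36%, and 0 turned sign.

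**Figure D4:**
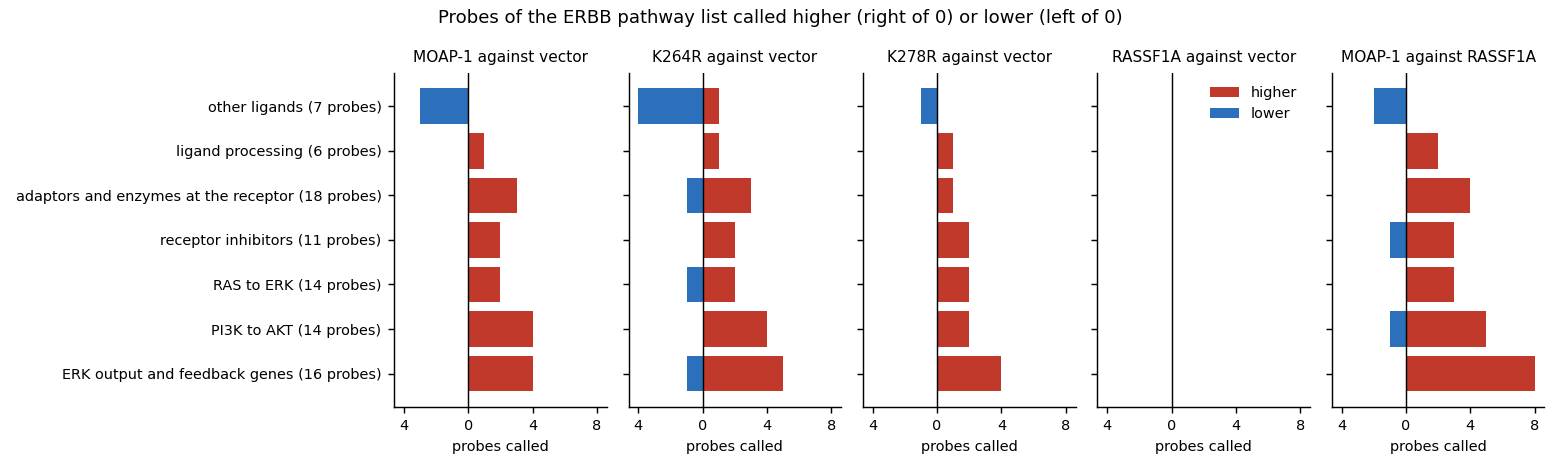
Number of ERBB pathway probes called (x axis) in each role group (y axis, with the number of tested probes), right of 0 for higher and left of 0 for lower, in 5 comparisons. Of 16 ERK output probes, 4 were called higher in MOAP-1 against vector and 8 in MOAP-1 against RASSF1A. Over all probes 9.92% and 13% were called higher. RASSF1A against vector had no calls by limma, beside 0% of all probes.

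The genes with profiles most like a member were sought for the members whose brightest tested probe varied most over constructs, ERBB4 (moderated F 27.1) and HBEGF (moderated F 20.4). Likeness was the root mean square difference of centred log2 levels over the 15 arrays, over 16969 genes. The nearest to ERBB4 were EDA at 0.11, NUTM2D at 0.12 and NCF1 at 0.13. The nearest to HBEGF were NCOA1 at 0.18, RBM3 at 0.19 and TAOK3 at 0.19. These are descriptions over 15 arrays that share slides.

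Several of these calls depended on the background correction. After normexp the median of all probes in MOAP-1 against vector was -0.53, and it was -0.16 once 17 spots of extreme local background on 3 arrays were left out. Without those spots 3 member probes were called, the short EGFR transcript, ERBB4 and GRB2, so 1 higher and 2 lower in place of 4 and 2. Over all probes the split was then 1130 higher and 1628 lower, in place of 3033 and 2046. For K264R against vector it was 1244 and 7712 in place of 2829 and 3120. In that setting 7 member probes were called in K264R, 4 higher and 3 lower, EREG at 0.65 among the higher and GAB1 at -0.71 among the lower. Relative to the median of all probes, the MOAP-1 values with full normexp were -0.70 for the short EGFR transcript, -0.59 for ERBB4, 0.90 for GRB2, 0.35 for HBEGF, -0.22 for the second TGFA probe and -1.20 for GAB1. Without extreme spots the same relative values were -0.78, -0.60, 0.81, 0.71, 0.57 and -0.29. On this relative scale in MOAP-1 against vector, directions were kept in both settings for EGFR, ERBB4, GRB2 and HBEGF, turned in full normexp only for TGFA, and turned in both for GAB1.

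**Figure D5:**
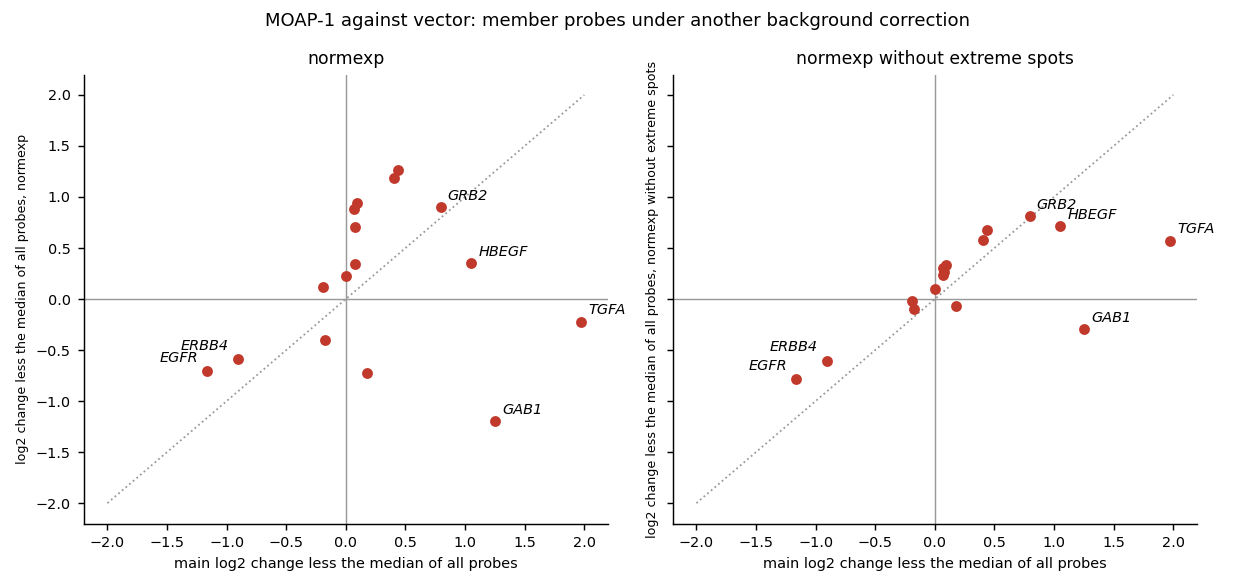
Log2 change of the member probes in MOAP-1 against vector less the median of all probes, with the background correction of the scanner software (x axis) and with normexp (y axis), on all spots (left) or without spots of extreme local background (right); the dotted line marks equal values. GRB2, ERBB4 and EGFR A_33_P3351944 stayed on their side of 0, GAB1 crossed it in both panels, and TGFA A_23_P377291 crossed it on the left only.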

How the data were processed

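Gene expression was measured on 15 one-color Agilent human 4x44K arrays, 3 tumors for each of 5 constructs, grouped by the sample labels. Per the file headers, the deposited processed signal is an intensity that Agilent Feature Extraction 10.5.1.1 had corrected for background, whereas the submitters' processing notes name version 9.1. The deposited series table holds log2 values that the authors made in GeneSpring, and it served as an alternative. Control spots and outlier spots were left out, replicate spots of a probe were averaged, and log2 signals were reduced by each array's 75th percentile. Probe names came from RefSeq accessions, which named 25422 of 34127 probes (74.5%). Probes well above background on all arrays of at least 1 construct were kept, and 112 of the 30585 kept probes lacked a value on some array. Constructs were compared with limma 3.58.1 in R 4.3.3 over all 15 arrays, with Benjamini-Hochberg adjustment over the kept probes, and the method was tested on simulated data. The number of arrays limits the precision. The alternatives were quantile normalization, normexp (offset 50) with and without spots whose local background exceeded 10 times the array median, other probe filters, slide, scan day and replicate terms, pairwise fits, the methods' t-test and leaving out each tumor. Named genes were all member probes, at most 3 pathway genes with the largest changes in each role group, and the 3 genes nearest in profile to the 2 members that varied most. Some pathway genes that this rule names are not reported here, although the counts over the whole list include them. The members and lists were chosen with earlier results of these data known. The arrays were designed on an earlier genome build than GRCh38.p14, so no probe coordinates are given.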

Additional observations from a re-analysis of the deposited data

Results flagged for a closer look

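Differences between the effects of 2 constructs against the same vector tumors were tested directly by limma, which is the comparison of the constructs themselves. Between MOAP-1 and the tumors labelled RASSF1A, 5 of the 16 member probes were called, beside 21.2% of all probes, 13% higher and 8.14% lower. The second TGFA probe (A_23_P377291) differed by 2.46, HBEGF by 1.69 and GRB2 by 1.36 on the log2 scale, all higher in MOAP-1, and ERBB4 by -0.95. GAB1 was not well above background in any tumor labelled RASSF1A or in MOAP-1 tumor 1. Its fitted difference of 1.27 is therefore no measured size, and no fold is given. After normexp only GRB2 kept its call in this comparison. RASSF1A tumors 1 and 2 were scanned on another day than all other arrays. With scan day as a term the RASSF1A level rested on tumor 3 alone, and GAB1 was at 1.05. The MOAP-1 and RASSF1A tumors shared no slide, so slide and construct cannot be told apart here.

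Between K264R and K278R, AREG differed by 0.97 at A_23_P259071 and by 1.13 at A_33_P3419190, and EREG by 0.83, all higher in K264R. Over all probes 0.575% were called, 0.216% higher and 0.36% lower. This comparison was chosen after the AREG and EREG levels had been seen, so it is not independent evidence. The mutants lay on different slides, and all 3 calls were lost without K264R tumor 1, K264R tumor 3 or K278R tumor 1.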

How the results depend on the processing

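Each comparison was recomputed under the alternatives, which gave 2127 member values with the same call, 67 that lost a call, 28 that gained one and 10 that changed sign with a call on either side. Of the 2127, 116 changed sign without being called, 45 of them with either normexp setting and 71 with others. Member probes called after normexp numbered 0 in MOAP-1, 2 in K264R and 0 in K278R against vector, 1 in MOAP-1 against RASSF1A and 0 in K264R against K278R, beside 1.71, 2.96, 0.00327, 7.36 and 0% of all probes. Without spots of extreme local background they numbered 3 in MOAP-1 and 2 in K278R against vector, beside 9.02 and 4.21%. The 10 changes of sign with a call were all with normexp. GAB1 went to -1.73, -0.86 and -0.23 in MOAP-1 against vector, K264R against vector and MOAP-1 against RASSF1A, and without extreme spots to -0.45, -0.71 and -0.23. TGFA A_23_P377291 went to -0.75 in MOAP-1, -0.33 in K264R and -1.03 in K278R against vector, and HBEGF to -0.18 in MOAP-1 against vector. The cause was not tested. Quantile normalization gave 8 in MOAP-1 against RASSF1A, beside 20.7% of all probes. Fits of only the arrays compared gave 1 in K278R against vector and 0 in K264R against K278R, beside 3.83 and 0%. The methods' t-test gave 0 in both of these after adjustment, beside 0% of all probes. Without adjustment it gave 2 in MOAP-1 against K278R, beside 0.471%.

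Leaving out 1 tumor gave 5 to 6 called member probes in MOAP-1, 8 to 9 in K264R, 2 to 4 in K278R and 0 to 2 in RASSF1A against vector, 0 to 0 in MOAP-1 against K264R or K278R, 4 to 6 in MOAP-1 against RASSF1A and 0 to 3 in K264R against K278R. Over all probes the shares against vector were 12.3 to 18.6% in MOAP-1 and 16.0 to 22.1% in K264R. In K278R and RASSF1A they were 5.52 to 12.9% and 0 to 4.6%. For MOAP-1 against K264R, K278R and RASSF1A they were 0 to 0.118%, 0 to 0.67% and 18.7 to 23.5%. For K264R against K278R the share was 0.0196 to 5.46%. The lowest K278R count was without K278R tumor 1, and the RASSF1A count of 2 without RASSF1A tumor 3. Deviations of tumors with the same replicate number had a median correlation of 0.11 over 30 pairs (-0.25 to 0.37). For different numbers it was -0.04 over 60 pairs (-0.47 to 0.45). The ranges overlap widely, so these values cannot settle whether the numbers pair the tumors. With the replicate block the counts were 6, 8, 5 and 0 against vector, 0, 0 and 5 for MOAP-1 against K264R, K278R and RASSF1A, and 3 for K264R against K278R. The shares of all probes were 17.2, 19.8, 11.6 and 0%, then 0.00327, 0 and 21.5%, and 0.268%. With slide as a random block the counts were 6, 8, 6 and 0, then 0, 0 and 5, and 3. The shares were then 17.1, 20.2, 12.3 and 0%, then 0.00327, 0.00327 and 21.7%, and 3.22%. The fitted correlation within slides was -0.08, and this block cannot separate slide from construct where groups shared no slide. GAB1 was well above background in no vector or RASSF1A tumor, so its size there is only a bound.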
